A study of Homo sapiens with 20 samples.

Results

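The 9 p53 pathway genes *MDM2*, *AEN*, *FAS*, *TP53INP1*, *ZMAT3*, *PLK2*, *PLK3*, *GDF15* and *BTG2* were followed in 5 human tumor cell lines that had been exposed to the tankyrase inhibitor (TNKSi) G007-LK. They were chosen by gene symbol as known members of the pathway, and all 9 were found among the 21201 gene symbols measured. The study counts 4 of the lines as TNKSi-sensitive, namely the colon line COLO 320DM, the kidney line UO-31, the ovarian line OVCAR-4 and the lung line ABC-1, and it uses the colon line RKO as an insensitive control. In each line, 2 libraries came from cells with 1 μM G007-LK for 24 h and 2 libraries from control cells with 0.01% DMSO for 24 h, which gives 20 libraries of poly(A) RNA. ABC-1 and RKO cells were grown in EMEM and the other lines in RPMI-1640, so the medium differs between lines and not within them. Each line is an established tumor line grown alone, and nothing in the labels says whether the replicates came from separate cultures. The spread between libraries, on which the p-values rest, may therefore be technical. In ABC-1 and UO-31 the fit took this spread from a trend over all genes and not from the gene itself. Very small p-values there do not measure a gene's own replicates. Levels are given as RPKM, the reads of a gene scaled by the length of its transcript and by the mapped reads of the library, and responses as the log2 fold change of G007-LK over DMSO on the scale of log2(RPKM + 0.5), which understates the change of genes near 0.

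Some facts of the whole data set touch the values below. The RPKM of a library summed to between 367195 and 909186, and the median gene of OVCAR-4 lay 0.74 to 0.98 log2 units above that of the other lines in DMSO, so levels in OVCAR-4 are also given after rescaling each library by its median ratio. Under G007-LK the median of all tested genes moved by -0.14 in ABC-1 and -0.11 in OVCAR-4, against -0.04 in UO-31, -0.02 in RKO and -0.01 in COLO 320DM. In RKO both G007-LK libraries lay above both DMSO libraries for 16.7% of all tested genes and below them for 35.2%. A lack of overlap is thus common. Its share is not given for the other lines, so it is a description wherever named below. Over all tested genes of UO-31, G007-LK replicate 1 lay a median of 0.29 log2 units above replicate 2, and all 9 p53 pathway genes were higher in its replicate 1, by 0.10 to 0.59. Line markers were partly present. All 3 kidney markers reached 1 RPKM in UO-31, and so did 2 of 3 ovary markers for OVCAR-4, while 2 of 4 colon markers did in COLO 320DM, 1 of 4 in RKO (*VIL1*, *CDH17* and *LGALS4* lay under 0.1) and 1 of 3 lung markers in ABC-1. The 5 blood and endothelial markers summed to between 0.016 and 6.73 RPKM per library.

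The p53 pathway is set off when DNA is damaged or cells are stressed, and its transcription factor switches on genes for cell cycle arrest, repair and cell death. The factor binds DNA as a tetramer, on elements built from 2 half-sites, and MDM2, the ubiquitin ligase that marks p53 for degradation, is itself a p53 target, which closes a feedback loop. Most of these genes also answer to other factors. *GDF15*, for example, is induced by the integrated stress response.

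The proximal promoters of *AEN* and *PLK2* are shown because these 2 genes fell together in all sensitive lines but UO-31 and were the only members with a p53 half-site match in the window searched. The sequences are from RefSeq on GRCh38.p14 and run from 250 bases before the transcription start site to 50 bases after it, and the half-site is in capitals.
*AEN*, chr15:88621090-88621389, plus strand: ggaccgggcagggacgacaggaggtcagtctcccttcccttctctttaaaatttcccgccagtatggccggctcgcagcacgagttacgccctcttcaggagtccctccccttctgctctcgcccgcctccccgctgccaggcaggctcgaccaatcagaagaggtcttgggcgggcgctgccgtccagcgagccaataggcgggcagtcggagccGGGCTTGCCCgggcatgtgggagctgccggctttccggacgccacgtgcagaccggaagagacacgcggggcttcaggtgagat
*PLK2*, chr5:58460037-58460336, minus strand: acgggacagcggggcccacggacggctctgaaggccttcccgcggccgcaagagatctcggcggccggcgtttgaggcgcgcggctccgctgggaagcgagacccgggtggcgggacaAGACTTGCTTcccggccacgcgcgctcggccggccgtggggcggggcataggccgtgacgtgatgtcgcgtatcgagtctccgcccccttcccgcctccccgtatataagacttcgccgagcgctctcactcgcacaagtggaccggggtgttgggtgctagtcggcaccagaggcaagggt
The search used the 10-base p53 half-site, which reads the same on both strands, so each match counts once. No mismatch was allowed, so elements with a mismatch or outside the window were not seen. The match of *AEN* begins 34 bases before the start site and that of *PLK2* 132 bases before it. Of the 8 members with a promoter in the table, these 2 held a half-site and 0 held a full element of 2 half-sites up to 13 bases apart. A half-site was found in 1786 of 27305 promoters (6.5%) and a full element in 8 (0.03%), so the lack of full elements among the members says little. Among the other p53 targets listed further on, 2 of the 23 with a promoter held a half-site. A match describes these letters only, and no binding was measured.

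The levels in DMSO cells differed widely between the lines. *PLK2*, a polo-like kinase of the stress response, had the widest span of the 9 genes, with 335 and 332 RPKM in UO-31 at one end and 0.0982 and 0.1004 RPKM in RKO at the other. Its level was 204 and 207 RPKM in OVCAR-4, while ABC-1 had 66.5 and 75.7 and COLO 320DM 19.0 and 23.0. In the 2 RKO libraries with DMSO this is 4 and 4 reads, as read from the spacing of the smallest values. *PLK2* was therefore at the floor in the insensitive line and near the top in UO-31, where 98.2% of tested genes lay below it. *GDF15*, a secreted stress cytokine of the TGF-β superfamily, had the next widest span, with 440 and 457 RPKM in OVCAR-4 and 0.252 and 0.163 RPKM in COLO 320DM. UO-31 had 143 and 143 RPKM, RKO 5.45 and 5.95, and ABC-1 5.54 and 4.84. *AEN*, which encodes an apoptosis-enhancing nuclease, varied least, by 2.26-fold between the highest and the lowest line mean.

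**Figure D1:**
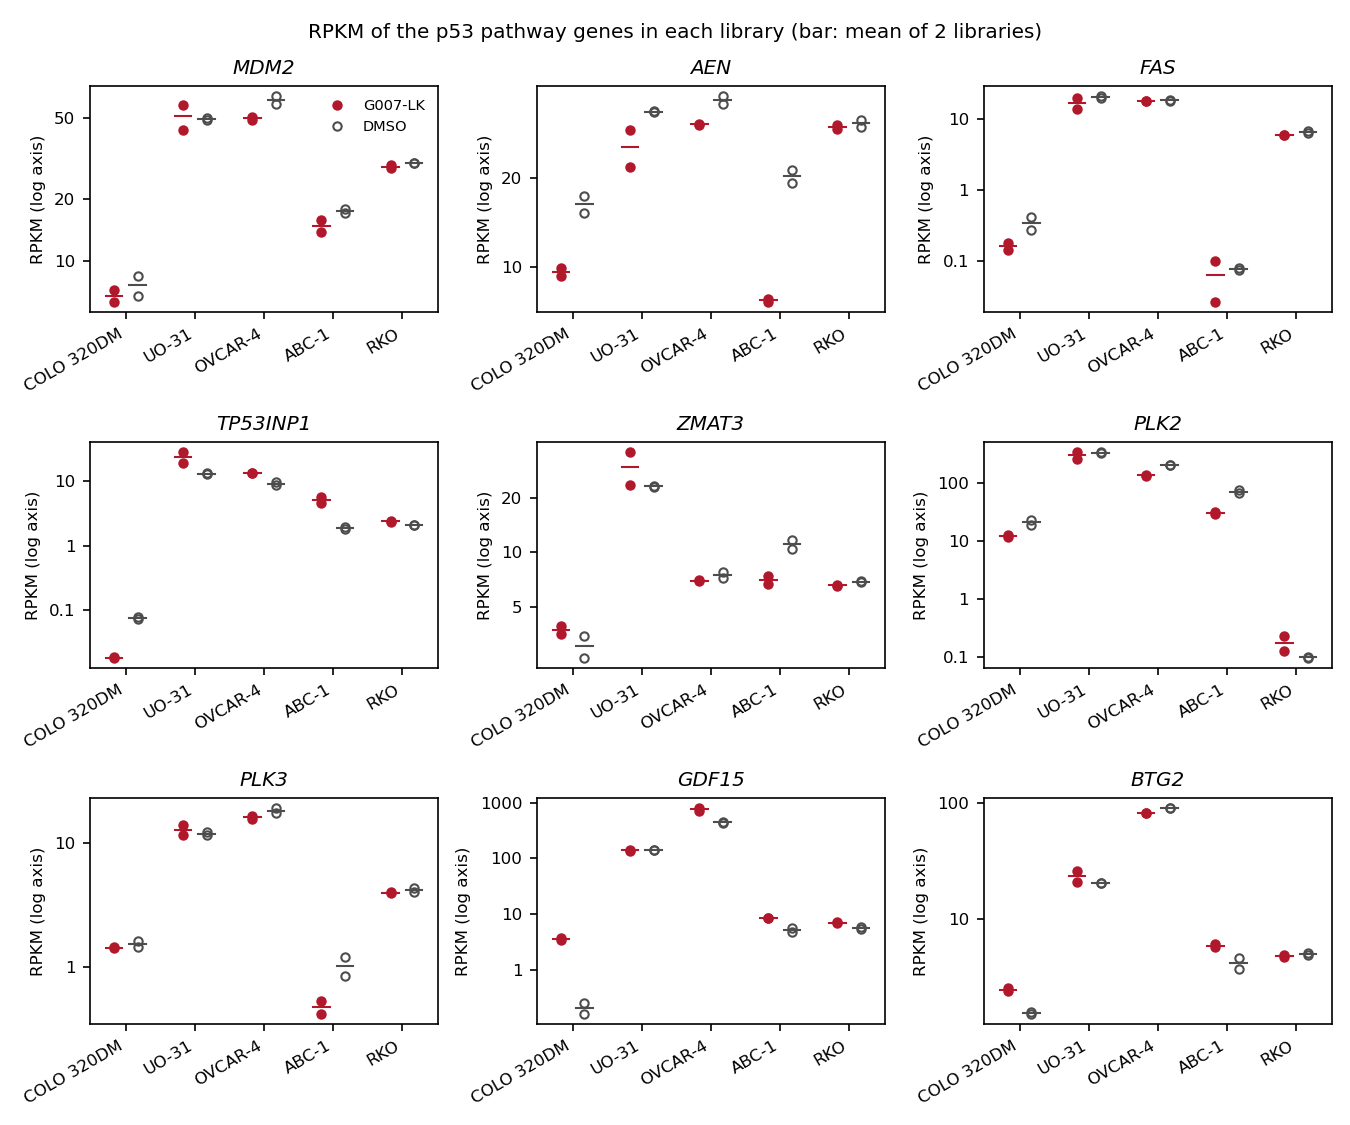
RPKM (log axis) of the 9 genes in each of the 20 libraries, with G007-LK as filled red points left of DMSO as open grey points, and the mean of 2 libraries as a bar. The 2 G007-LK libraries of UO-31 lie apart for most genes, *PLK2* is near 0.1 RPKM in RKO, and *GDF15* runs from 0.163 RPKM in COLO 320DM to 796 RPKM in OVCAR-4.

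Over the 10 pairs of lines, 84 of 90 contrasts of a DMSO level passed the test (limma, adjusted p under 0.05), where 83.4% of all gene contrasts did (77.2% to 88.9% by pair), so differing between lines was common to most genes. OVCAR-4 had the highest mean of *MDM2* (60.9 ± 3.9 RPKM, SD, n = 2), *AEN*, *PLK3*, *GDF15* and *BTG2*, and UO-31 that of *TP53INP1*, *ZMAT3*, *FAS* and *PLK2*. COLO 320DM had the lowest mean of *MDM2* (7.58 ± 1.2 RPKM), *AEN*, *GDF15*, *TP53INP1*, *ZMAT3* and *BTG2*, ABC-1 that of *PLK3* and *FAS*, and RKO that of *PLK2*. The neighbors in these orders that did not differ beyond their spread were OVCAR-4 and UO-31 for *AEN* (adjusted p = 0.143) and UO-31 and RKO for *AEN* (0.161), UO-31 and OVCAR-4 for *FAS* (0.153), RKO and ABC-1 for *GDF15* (0.210) and for *TP53INP1* (0.205), and OVCAR-4 and RKO for *ZMAT3* (0.331). The first places of OVCAR-4, and its likeness to neighbors in *AEN*, *FAS* and *ZMAT3*, depend on its scale. With each library rescaled, UO-31 over OVCAR-4 was 0.97 log2 units for *FAS* (limma, adjusted p = 4.29e-07). OVCAR-4 over RKO was then -0.81 for *ZMAT3* (limma, adjusted p = 5.81e-07). After rescaling, OVCAR-4 lay below UO-31 by 0.53 log2 units for *MDM2* and by 0.69 for *AEN*, and the difference for *PLK3* no longer passed (adjusted p = 0.119), while it stayed above UO-31 by 0.81 for *GDF15* and 1.27 for *BTG2*.

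**Figure D2:**
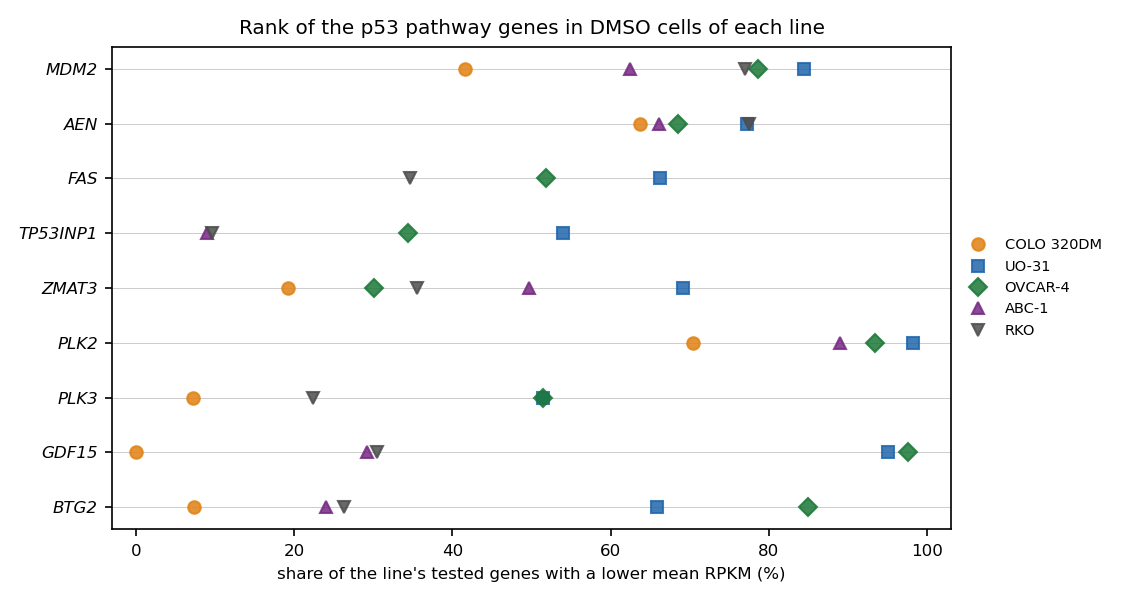
Share of the tested genes of a line (percent, horizontal axis) with a lower mean RPKM in DMSO cells than each of the 9 genes, with 1 symbol per line. *PLK2* and *GDF15* lie above 93% of tested genes in UO-31 and OVCAR-4, and genes under the filter of a line have no symbol for it.

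*FAS*, which encodes the death receptor CD95, was low in COLO 320DM and ABC-1. In DMSO cells UO-31 had 21.3 and 20.3 RPKM, OVCAR-4 18.9 and 18.3, and RKO 6.86 and 6.46. COLO 320DM had 0.272 and 0.420 RPKM and ABC-1 0.0726 and 0.0776, which in ABC-1 stands for 5 and 5 reads. Exons of *FAS* overlap those of *ACTA2* on the opposite strand by up to 380 bases in GRCh37, strand is not stated for these libraries, and *ACTA2* was also highest in UO-31 and OVCAR-4 (34.1 to 57.4 RPKM, against at most 1.30 in the other lines), so its part in the *FAS* values was not tested. *MDM2* overlaps *CPM*, *PLK3* overlaps *DYNLT4* and *TP53INP1* overlaps *NDUFAF6* in the same way, by 98 to 225 bases, and an exon of *MDM2* also overlaps a processed pseudogene on its own strand.

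*MDM2* (GRCh37 chr12:69201957-69239324, 17 merged exons) changed little. With G007-LK it had 50.1 and 48.9 RPKM in OVCAR-4, against 58.2 and 63.6 with DMSO, a log2 fold change of -0.29 ± 0.05 (SE, limma, adjusted p = 0.000404). In ABC-1 it had 15.9 and 13.8 RPKM with G007-LK, against 17.1 and 17.9 with DMSO (-0.23 ± 0.10, adjusted p = 0.0291). In both lines the 2 groups did not overlap, but the median of all genes also moved down, and after rescaling the change was -0.18 in OVCAR-4 (adjusted p = 0.00847) and -0.08 in ABC-1 (0.283). *MDM2* had 7.20 and 6.31 RPKM with G007-LK and 6.73 and 8.42 with DMSO in COLO 320DM, and 57.9 and 43.6 against 49.8 and 48.5 in UO-31. The groups overlapped in both of these lines, and in UO-31 the value was -0.17 without G007-LK replicate 1 (adjusted p = 0.0174) and 0.23 without G007-LK replicate 2 (0.00377). In RKO it had 29.2 and 28.5 RPKM with G007-LK, against 29.98 and 30.00 with DMSO (-0.06 ± 0.03, adjusted p = 0.327). In ABC-1 the call held without DMSO replicate 1 (adjusted p = 0.0171) and was lost without any other library (up to 0.533). *MDM2* rose past the threshold in none of the 5 lines as deposited.

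*AEN* (chr15:89164568-89175512) fell in 3 of the 4 sensitive lines. In ABC-1 it had 7.77 and 7.61 RPKM with G007-LK, against 19.2 and 21.3 with DMSO, which is 0.379 times the DMSO mean (log2 fold change -1.34 ± 0.10, adjusted p = 1.91e-37). In COLO 320DM it had 9.87 and 9.27 RPKM with G007-LK, against 15.2 and 17.4 with DMSO (-0.74 ± 0.13, adjusted p = 0.000653). In OVCAR-4 it had 30.5 and 30.4 RPKM with G007-LK, against 35.8 and 37.9 with DMSO (-0.27 ± 0.05, adjusted p = 0.000721). In these 3 lines every G007-LK library lay below every DMSO library. The same held in UO-31, with 29.1 and 21.8 RPKM against 33.4 and 33.7, where the test missed the threshold as deposited (-0.41 ± 0.16, adjusted p = 0.0832) and passed it after rescaling (-0.36, adjusted p = 0.0102). With 1 library left out, the value in UO-31 was -0.61 (G007-LK replicate 1 dropped) and -0.20 (G007-LK replicate 2 dropped). It was -0.41 without DMSO replicate 1 and -0.40 without DMSO replicate 2. In RKO *AEN* had 29.4 and 30.3 RPKM with G007-LK and 29.9 and 31.4 with DMSO, and the groups overlapped (-0.04 ± 0.03, adjusted p = 0.563). In COLO 320DM the call was lost without G007-LK replicate 2 (adjusted p = 0.0769).

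*PLK2* (chr5:57749809-57755966) fell in the same 3 lines. In ABC-1 it had 31.8 and 29.3 RPKM with G007-LK, against 66.5 and 75.7 with DMSO (-1.20 ± 0.08, adjusted p = 3.02e-52). In COLO 320DM it had 12.7 and 11.7 RPKM with G007-LK, against 19.0 and 23.0 with DMSO (-0.75 ± 0.13, adjusted p = 0.000476). In OVCAR-4 it had 134 and 136 RPKM with G007-LK, against 204 and 207 with DMSO (-0.61 ± 0.04, adjusted p = 1.09e-07). The groups did not overlap in any of the 3. In UO-31 *PLK2* had 337 and 259 RPKM with G007-LK and 335 and 332 with DMSO, so that only G007-LK replicate 2 lay below the controls (-0.17 ± 0.10, adjusted p = 0.282). Without G007-LK replicate 1 the value in UO-31 was -0.36, and without G007-LK replicate 2 it was 0.02. In RKO the gene was too low for the test, with 5 and 9 reads in the G007-LK libraries and 4 and 4 in the DMSO libraries, a ratio per depth of 1.80 with an exact 95% interval of 0.703 to 4.94, which covers counting error only. In COLO 320DM the call was lost without G007-LK replicate 2 (adjusted p = 0.0518).

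*PLK3*, the second polo-like kinase of the group, moved less than *PLK2* in COLO 320DM and OVCAR-4. It passed the test only in OVCAR-4, with 15.7 and 16.5 RPKM under G007-LK and 19.1 and 17.5 under DMSO (-0.18 ± 0.06, limma, adjusted p = 0.0322). This call did not hold after rescaling (-0.07, adjusted p = 0.403), nor without G007-LK replicate 1 or DMSO replicate 1 (up to 0.220). In ABC-1 its mean over the 4 libraries was under the filter of 1 RPKM, and it had 0.423 and 0.532 RPKM with G007-LK, against 1.22 and 0.849 with DMSO. The groups in ABC-1 did not overlap, and beside 0.430 for *PLK2* the G007-LK mean of *PLK3* was 0.463 times its DMSO mean. It had 1.43 and 1.46 RPKM with G007-LK and 1.47 and 1.62 with DMSO in COLO 320DM, 14.01 and 11.6 against 12.3 and 11.5 in UO-31, and 3.99 and 4.02 against 4.06 and 4.32 in RKO, with adjusted p-values between 0.617 and 0.850. In UO-31 it was -0.03 when G007-LK replicate 1 was dropped, and 0.22 when replicate 2 was.

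**Figure D3:**
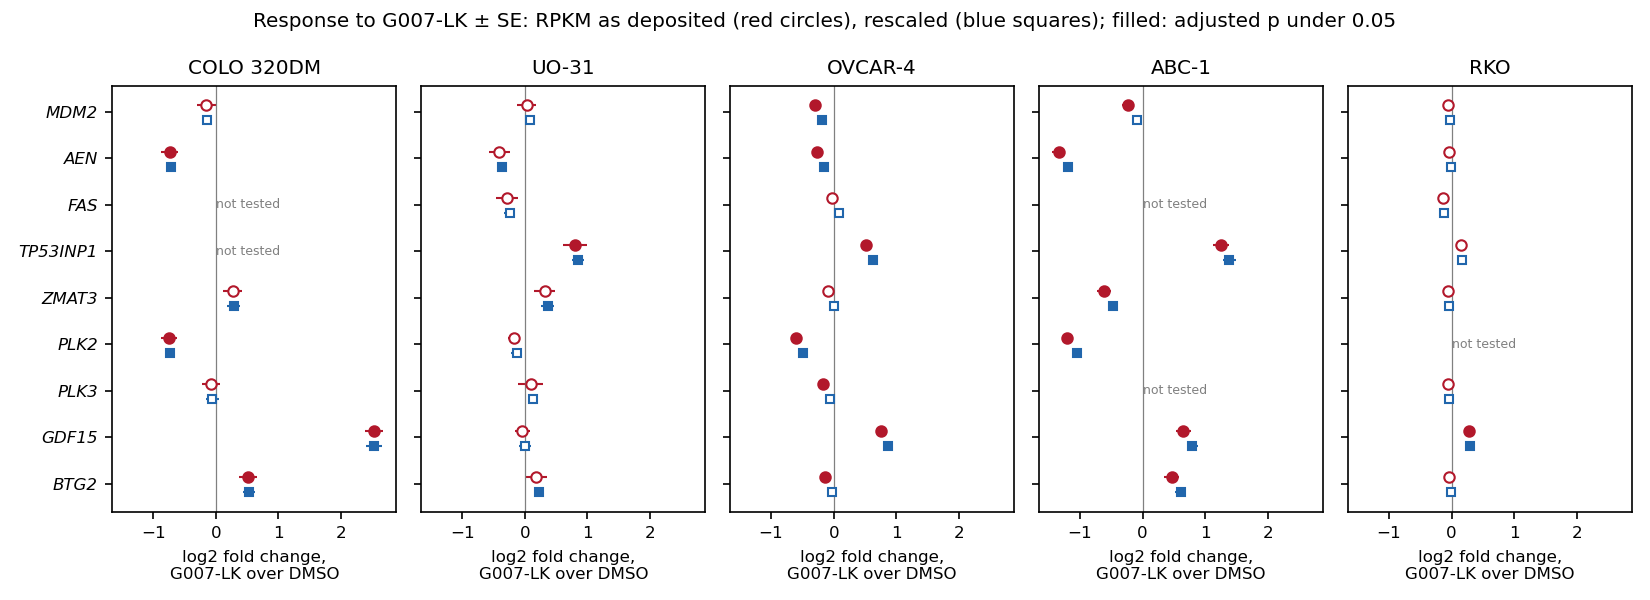
Log2 fold change of G007-LK over DMSO (horizontal axis) with its SE for the 9 genes in the 5 lines, from RPKM as deposited (red circles, upper) and after rescaling (blue squares, lower), filled where the adjusted p is under 0.05. *AEN* and *PLK2* lie left of 0 and *GDF15* and *TP53INP1* right of 0 in OVCAR-4 and ABC-1, and the values in RKO lie between -0.14 and 0.28.

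*GDF15* (chr19:18485541-18499986) rose in OVCAR-4, ABC-1 and RKO, and COLO 320DM had its widest difference. In COLO 320DM it had 3.40 and 3.74 RPKM with G007-LK, against 0.252 and 0.163 with DMSO. The mean with G007-LK was 17.2 times the DMSO mean, and the log2 fold change, held down by the pseudocount, was 2.53 ± 0.15. The gene passed the filter in this line only through its G007-LK libraries, so this value is a description. In OVCAR-4 it had 719 and 796 RPKM with G007-LK, against 440 and 457 with DMSO (0.75 ± 0.05, adjusted p = 1.24e-06), the highest level of any member in any group. In ABC-1 it had 8.44 and 8.35 RPKM with G007-LK, against 5.54 and 4.84 with DMSO (0.65 ± 0.12, adjusted p = 1.25e-07). In these 3 lines the groups did not overlap. In RKO it had 7.15 and 6.88 RPKM with G007-LK, against 5.45 and 5.95 with DMSO, again with no overlap (0.28 ± 0.06, adjusted p = 0.0272). This was the only member called in RKO, and the call was lost without G007-LK replicate 1, G007-LK replicate 2 or DMSO replicate 1 (adjusted p up to 0.131). In UO-31, where it was already high, *GDF15* had 144 and 134 RPKM with G007-LK and 143 and 143 with DMSO (-0.04 ± 0.12, adjusted p = 0.904).

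*TP53INP1*, on chromosome 8, encodes a stress-induced protein that acts with p53 in cell death and autophagy. It rose in the 3 sensitive lines in which it could be tested. In ABC-1 it had 5.75 and 4.596 RPKM with G007-LK, against 1.92 and 1.82 with DMSO (1.25 ± 0.13, adjusted p = 1.75e-21). In UO-31 it had 27.9 and 19.1 RPKM with G007-LK, against 12.9 and 13.1 with DMSO (0.80 ± 0.19, adjusted p = 0.000366). In OVCAR-4 it had 13.2 and 13.5 RPKM with G007-LK, against 8.55 and 9.77 with DMSO (0.52 ± 0.07, adjusted p = 0.000102). The groups did not overlap in any of these lines, and *TP53INP1* was the only member to pass the test in UO-31. That call was lost when either DMSO library was left out (adjusted p = 0.802 and 0.773), and the value was 0.53 without G007-LK replicate 1. In RKO it had 2.31 and 2.43 RPKM with G007-LK, against 2.08 and 2.12 with DMSO (0.14 ± 0.07, adjusted p = 0.278). COLO 320DM stood apart. Its libraries held 3 and 3 reads of *TP53INP1* with G007-LK, against 12 and 11 with DMSO, a ratio per depth of 0.249 with an exact 95% interval of 0.0828 to 0.628 for counting error only, and the gene was under the filter there.

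*ZMAT3*, which encodes a zinc finger protein that binds RNA, went different ways in different lines. In ABC-1 it fell, with 7.44 and 6.64 RPKM under G007-LK and 10.5 and 11.7 under DMSO (-0.62 ± 0.11, adjusted p = 7.89e-08). In COLO 320DM it had 3.92 and 3.54 RPKM with G007-LK, against 2.62 and 3.46 with DMSO (0.27 ± 0.16, adjusted p = 0.253), and in UO-31 35.7 and 23.6 against 23.1 and 23.3 (0.32 ± 0.17, adjusted p = 0.231). After rescaling, the higher values in COLO 320DM (adjusted p = 0.0454) and UO-31 (0.0297) passed the test. As deposited, dropping G007-LK replicate 1 of UO-31 gave 0.02 and dropping its replicate 2 gave 0.61. The value in COLO 320DM ran between 0.10 without DMSO replicate 1 and 0.44 without DMSO replicate 2. In OVCAR-4 it had 6.94 and 7.02 RPKM with G007-LK and 7.24 and 7.77 with DMSO, and in RKO 6.55 and 6.62 against 6.81 and 6.95. In both lines the groups did not overlap, but neither difference passed the test (adjusted p = 0.308 and 0.529).

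*BTG2* (chr1:203274619-203278730), an antiproliferative gene whose protein works with the CCR4-NOT deadenylase complex, rose in 2 lines. In COLO 320DM it had 2.52 and 2.36 RPKM with G007-LK, against 1.52 and 1.58 with DMSO (0.52 ± 0.14, adjusted p = 0.0158). In ABC-1 it had 5.69 and 6.06 RPKM with G007-LK, against 3.66 and 4.61 with DMSO (0.47 ± 0.12, adjusted p = 0.000355). In OVCAR-4, where its level was highest, *BTG2* had 81.2 and 81.2 RPKM with G007-LK, against 89.8 and 89.4 with DMSO (-0.14 ± 0.04, adjusted p = 0.00943), beside a median gene at -0.11, and this fall was not called after rescaling (-0.03, adjusted p = 0.533). In UO-31 it had 26.0 and 20.8 RPKM with G007-LK and 20.4 and 20.5 with DMSO, and in RKO 4.71 and 4.89 against 5.03 and 4.83, both past no threshold as deposited (adjusted p = 0.595 and 0.757), and the higher values in UO-31 passed after rescaling. As deposited, dropping G007-LK replicate 1 of UO-31 gave 0.02, and dropping its replicate 2 gave 0.34. Calls were lost without either G007-LK library in COLO 320DM (adjusted p up to 0.323), without G007-LK replicate 2 in ABC-1 (0.0601) and without either DMSO library in OVCAR-4 (up to 0.0641).

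*FAS* passed the test in none of the 3 lines in which it was tested, and it was the only member called in no line. In UO-31 its value was -0.53 without G007-LK replicate 1, which passed (adjusted p = 4.34e-05), and -0.03 without G007-LK replicate 2. It had 20.3 and 14.2 RPKM with G007-LK and 21.3 and 20.3 with DMSO in UO-31 (-0.28 ± 0.18, adjusted p = 0.361), 18.3 and 18.1 against 18.9 and 18.3 in OVCAR-4 (-0.03 ± 0.06, adjusted p = 0.687), and 6.03 and 5.93 against 6.86 and 6.46 in RKO (-0.14 ± 0.05, adjusted p = 0.149). Of these tests, the one in RKO had an unadjusted p under 0.05. In COLO 320DM the G007-LK libraries held 11 and 14 reads and the DMSO libraries 22 and 29, a ratio per depth of 0.467 (exact 95% interval 0.277 to 0.768). In ABC-1 they held 7 and 2 reads against 5 and 5.

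Counted over the lines, 9 of 40 tests of a member were called higher and 11 lower, the higher ones including *GDF15* in COLO 320DM. In COLO 320DM 2 of 7 tested members rose, 1 of which is *GDF15* with its entry through the G007-LK libraries, and 2 fell, where 7.7% of all 11279 tested genes rose and 11.6% fell. In UO-31 1 of 9 rose and 0 fell (all genes 4.79% and 8.63%), and in OVCAR-4 2 of 9 rose and 5 fell (12.6% and 39.0%). In ABC-1 3 of 7 rose and 4 fell (16.6% and 41.2%), and in RKO 1 of 8 rose and 0 fell (1.36% and 2.75%). The median log2 fold change of the tested members was -0.07 in COLO 320DM, 0.03 in UO-31, -0.14 in OVCAR-4, -0.23 in ABC-1 and -0.05 in RKO, beside the medians of all genes given above. After rescaling, ABC-1 had 3 members called higher and 3 lower (all genes 31.4% and 32.4%), OVCAR-4 2 and 3 (24.1% and 23.0%), COLO 320DM 3 and 2 (18.4% and 20.2%), UO-31 3 and 1 (14.6% and 15.5%), and RKO 1 and 0 (1.65% and 1.06%). Most members whose groups did not overlap in RKO were small changes, with 2 of 8 higher and 4 of 8 lower where 16.7% and 35.2% of all genes were. In ABC-1 and UO-31 the fit took the spread of a gene from the trend over all genes, so their p-values rest on that trend. Without trend or robust estimation 6 of 7 members in ABC-1 and 1 of 9 in UO-31 were called. The share of all genes called in that fit was not counted, so these numbers are no result about the members.

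Over the 16 libraries of the sensitive lines, with line as a term, 6 members could be tested. *AEN* fell (-0.69 ± 0.12, adjusted p = 0.000189) and *PLK2* fell (-0.68 ± 0.11, adjusted p = 9.72e-05), while *BTG2* rose (0.26 ± 0.09, adjusted p = 0.0231). *GDF15* was higher too (0.97 ± 0.24). It passed the filter of COLO 320DM only through its G007-LK libraries, so this value is a description. Without COLO 320DM, *GDF15* was at 0.45 (adjusted p = 0.00313) and the call of *BTG2* was lost (0.160), as it was without ABC-1 (0.161). *MDM2* (-0.16 ± 0.07, adjusted p = 0.0719) and *ZMAT3* (-0.03 ± 0.12, adjusted p = 0.847) did not pass, though *MDM2* did without UO-31 (-0.23, adjusted p = 0.0185). Of all 9384 genes in this fit, 10.2% were called higher and 33.8% lower. As deposited and after rescaling alike, the same 4 members were called, counting *GDF15*.

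Whether the lines differ in their response was tested as the interaction of treatment and line in each of the 10 pairs, and 38 of 89 tests of a member passed, where 19.7% of the tests of all genes did. Of the 71 tests in which the gene passed the filter of both lines, 30 passed. The share of all genes under this double filter was not counted, so counts under it, here and below, are no result about the members. These 71 count *GDF15* in COLO 320DM, which passed that line's filter only through its G007-LK libraries. *GDF15* differed in 8 of 10 pairs, *AEN* in 7 and *PLK2* in 6 (3 of the 6 pairs without RKO), while *MDM2* differed in 1 and *FAS* in 0 of 9. At an unadjusted p under 0.05, 0 of the *FAS* tests would count, and 2 passed after rescaling. Relative to RKO, the response of ABC-1 differed for 7 of 9 members (3 more positive, 4 more negative) where 12.8% and 34.0% of all genes did. Among the more negative are *PLK2*, under the filter in RKO, and *PLK3*, under it in ABC-1, which leaves 5 of 6 members past the filter of both lines. OVCAR-4 differed from RKO for 5 of 9 (2 and 3, all genes 7.8% and 27.6%) and COLO 320DM for 4 of 9 (2 and 2, all genes 4.57% and 7.05%). Both again count *PLK2*, and COLO 320DM also counts *GDF15*, whose value there is a description. UO-31 differed for 0 of 9 (2.14% and 4.02%). For UO-31, whose G007-LK replicates lie apart, 4 of 9 passed after rescaling, and 2 of 9 had an unadjusted p under 0.05. The share of all genes was not counted for rescaled or unadjusted tests of the difference, so these numbers are no result about the members.

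**Figure D4:**
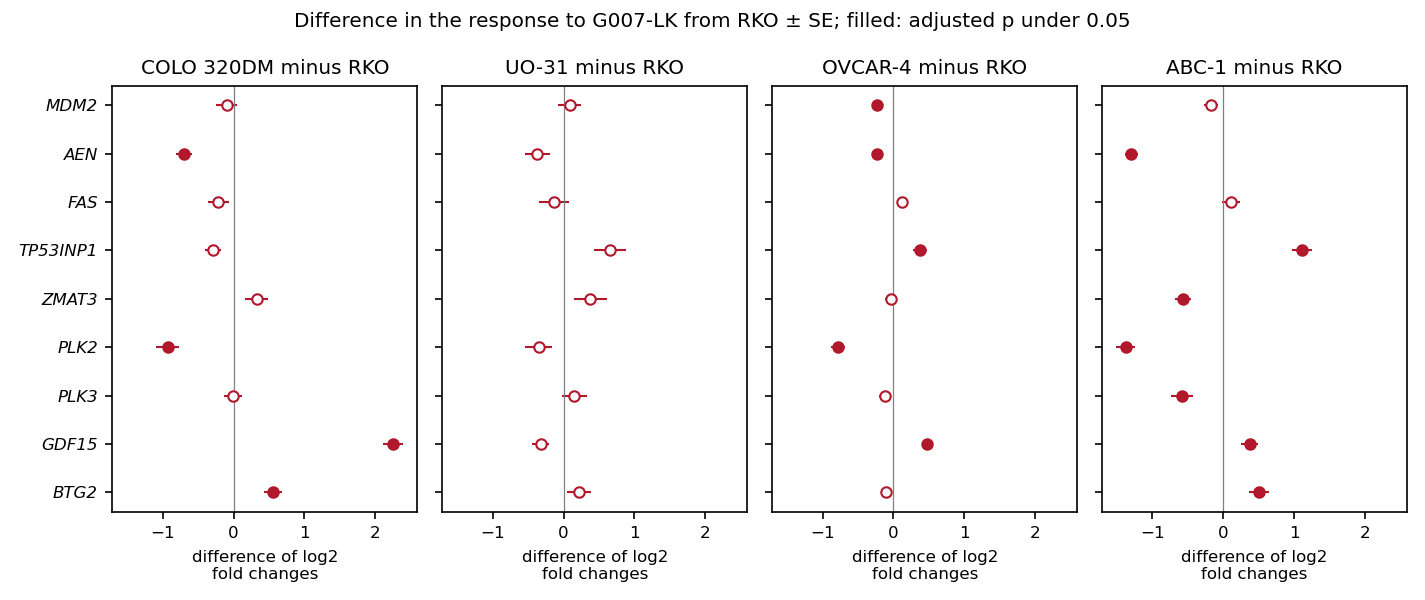
Response to G007-LK in each sensitive line minus that in RKO (difference of log2 fold changes, horizontal axis) with its SE, filled where the adjusted p is under 0.05. *AEN* lies at -1.30 and *TP53INP1* at 1.11 in ABC-1, and *GDF15* at 2.25 in COLO 320DM.

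The response of *AEN* minus that in RKO was -1.30 ± 0.09 log2 units in ABC-1 (adjusted p = 2.13e-07), -0.70 ± 0.11 in COLO 320DM (0.00441) and -0.23 ± 0.06 in OVCAR-4 (0.0126). *AEN* also fell more in ABC-1 than in each other sensitive line, with a response higher by 0.60 in COLO 320DM, by 0.93 in UO-31 and by 1.07 in OVCAR-4 (adjusted p of 0.0166 or less). *GDF15* was 0.48 ± 0.08 more positive in OVCAR-4 than in RKO (limma, adjusted p = 0.00147) and 0.37 ± 0.12 in ABC-1 (0.0185). In COLO 320DM it was 2.25 ± 0.14 more positive, a description, since it had 0.252 and 0.163 RPKM with DMSO there. For *TP53INP1* the difference from RKO was 1.11 ± 0.14 in ABC-1 (adjusted p = 2.40e-05) and 0.38 ± 0.10 in OVCAR-4 (0.0145). The response of *ZMAT3* was 0.89 ± 0.19 higher in COLO 320DM (adjusted p = 0.00644) and 0.94 ± 0.24 higher in UO-31 (0.0423) than in ABC-1. *BTG2* differed between COLO 320DM and OVCAR-4 by 0.66 ± 0.12 (adjusted p = 0.00332). The differences of *PLK2* from RKO rest on 4 to 9 reads in the RKO libraries.

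Other genes of the pathway were taken from a list of 33 p53 targets and a list of 11 regulators, all measured. In ABC-1 8 of 28 tested targets rose and 14 fell (all genes 16.6% and 41.2%). The largest rises were in *BBC3*, which encodes the apoptosis protein PUMA, and in *CDKN1A*, which encodes the cell cycle inhibitor p21. *BBC3* had 21.5 and 22.5 RPKM with G007-LK, against 5.75 and 6.73 with DMSO (1.74 ± 0.10, adjusted p = 7.87e-61), and *CDKN1A* had 25.5 and 26.9 against 11.7 and 11.9 (1.11 ± 0.09, adjusted p = 1.95e-30). These 2 classical targets thus moved up in the line in which *AEN* and *PLK2* moved down most. The decoy receptor gene *TNFRSF10D* (15.95 and 15.4 RPKM with G007-LK, against 28.9 and 32.8 with DMSO) and *TIGAR*, a regulator of glycolysis, fell in ABC-1 by 0.95 and 0.75 on the log2 scale. *BAX*, which encodes a pore-forming death protein, had a log2 fold change of -0.31 ± 0.07 there (adjusted p = 5.82e-05), and -0.16 after rescaling.

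In COLO 320DM 5 of 26 tested targets rose and 1 fell (all genes 7.7% and 11.6%). *SESN2*, a stress-induced inhibitor of mTORC1, had 10.4 and 10.6 RPKM with G007-LK, against 3.28 and 3.71 with DMSO (1.46 ± 0.14, adjusted p = 9.76e-07), and rose together with *APAF1* (0.57), *GADD45A* (0.51) and *BBC3* (0.49). *CDKN1A* was nearly silent in this line, with 0.524 and 0.565 RPKM with G007-LK and 0.537 and 0.646 with DMSO, and was not tested. In OVCAR-4 5 of 28 targets rose and 12 fell (all genes 12.6% and 39.0%), and the numbers were 10 and 7 after rescaling (24.1% and 23.0%). *TP53I3*, an oxidoreductase gene, rose in OVCAR-4 (0.64 ± 0.06, adjusted p = 6.84e-06) and *SFN*, which encodes 14-3-3σ, rose too (0.43 ± 0.04), while *ASCC3* (-0.54) and *POLH* (-0.42), both of DNA repair and damage tolerance, fell. *CDKN1A* had 263 and 271 RPKM with G007-LK, against 206 and 224 with DMSO (0.31 ± 0.04, adjusted p = 0.000101), and *BBC3* rose by 0.25. In UO-31 2 of 33 targets rose and 3 fell (all genes 4.79% and 8.63%), namely *TP53I3* (0.60) and *BBC3* (0.48) upwards and *PMAIP1* (-0.54, adjusted p = 0.04996), *SFN* (-0.50) and *GADD45A* (-0.42) downwards. *CDKN1A*, with 243 and 278 RPKM under G007-LK and 240 and 246 under DMSO, did not pass there (0.10 ± 0.11, adjusted p = 0.637). *BBC3* was thus called higher in all 4 sensitive lines, and over their 16 libraries it rose by 0.74 ± 0.15 (adjusted p = 0.000831). Its call in UO-31 (limma, adjusted p = 0.0283) rests on the trend over all genes. In RKO it was at 0.10 (adjusted p = 0.361). The difference of *BBC3* from RKO and its dependence on single libraries were not tested. In RKO 0 of 30 targets passed in limma (8 at an unadjusted p under 0.05, all genes 1.36% and 2.75% called), with *CDKN1A* at 76.1 and 78.3 RPKM with G007-LK and 73.5 and 74.6 with DMSO.

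*MDM4*, the relative of *MDM2* that restrains p53, lay between 0.972 and 4.25 RPKM in all libraries and passed in none of the 5 lines. Of the tested regulators, 1 of 10 rose and 6 fell in ABC-1 (all genes 16.6% and 41.2%), 0 of 10 rose and 5 fell in OVCAR-4 (12.6% and 39.0%), 0 of 9 rose and 2 fell in COLO 320DM (7.7% and 11.6%), and 0 of 8 in UO-31 and 0 of 9 in RKO changed in limma (1 and 1 at an unadjusted p under 0.05). After rescaling, ABC-1 had 3 regulators called higher and 5 lower (all genes 31.4% and 32.4%), and OVCAR-4 had 0 and 3 (24.1% and 23.0%). COLO 320DM then had 1 and 3 (18.4% and 20.2%), UO-31 had 0 and 3 (14.6% and 15.5%), and RKO had 0 and 0 (1.65% and 1.06%). The checkpoint kinase genes *CHEK1* (7.03 and 7.07 RPKM with G007-LK, against 15.8 and 17.9 with DMSO) and *CHEK2* (14.2 and 14.3, against 32.5 and 34.0) fell most in ABC-1, by 1.20 and 1.19 on the log2 scale, and were named after their values were seen. The tissue markers that passed the test were *CDX2* (colon, -0.52) in COLO 320DM, *CA9* (kidney, 1.10) in UO-31 and *NKX2-1* (lung, -1.01) in ABC-1. In OVCAR-4 they were *VIL1* (colon, 0.69), *PAX8* (kidney and ovary, 0.13), *MUC16* (ovary, 0.62) and *CDH5* (endothelium, 0.29). *MUC16* was also higher in ABC-1 (1.19), but near the filter. The 3 ovary markers together summed to between 1.05 and 2.81 RPKM per library there, so this value is a description. The part of these markers in the values above was not tested.

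**Figure D5:**
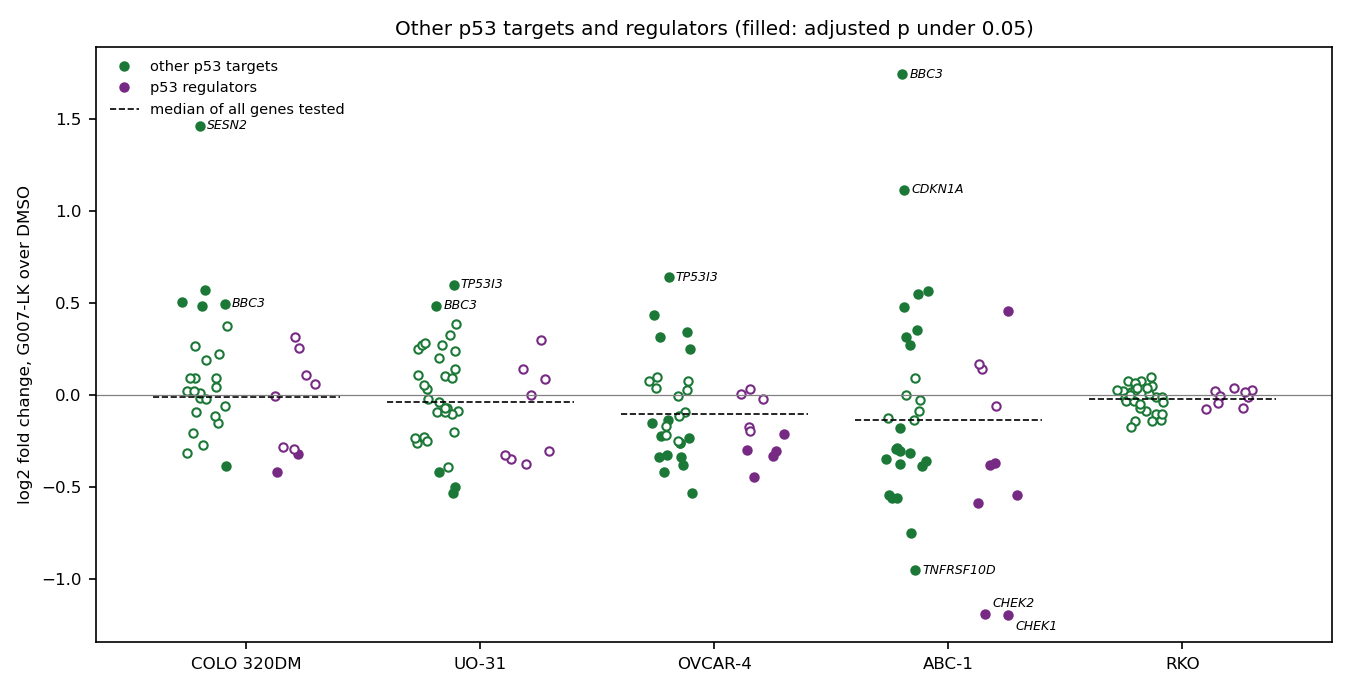
Log2 fold change of G007-LK over DMSO (vertical axis) of the other p53 targets (green) and the p53 regulators (purple) by line, filled where the adjusted p is under 0.05, with the median of all tested genes as a dashed line. *BBC3* and *CDKN1A* lie at 1.74 and 1.11 in ABC-1, *SESN2* at 1.46 in COLO 320DM, and no point is filled in RKO.

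The genes whose levels followed a member most closely were looked for over the 10 group means among the 12601 genes that averaged 1 RPKM or more. The points are 5 lines with 2 treatments each, so the correlations mostly follow the differences between lines and are given as a description. Pearson's r was 0.99 for *MDM2* with *HOXB7* and *RPSA*, for *PLK2* with *STOM* (and with *SDC2*), for *PLK3* with *PPP2CB* and *PANX1*, for *GDF15* with *CORO1B* and *TRPT1*, for *TP53INP1* with *DDX60* and *TRAPPC1*, for *BTG2* with *DPP3* and *DOPEY2*, and 0.99 to 1.00 for *FAS* with *PSMB8* and *ASPHD1*. *AEN* (*DNAJA1*, r = 0.96, and *NETO2*, r = 0.95) and *ZMAT3* (*SYNJ2* and *NCEH1*, both r = 0.97) had less close neighbors.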

How the data were processed

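Poly(A) RNA of the 20 libraries was sequenced by BGI on an Illumina HiSeq instrument. The RPKM values were made and deposited by the authors, who used SOAPaligner/SOAP2 with up to 2 mismatches and hg19 genes as the reference, one value per gene and library. The aligner's version was not given in the sources used here, nor was the strand of the libraries. Files with only the authors' NOISeq comparisons were not used. Missing values were set to 0, 8 entries that carry no symbol (0.00134% or less of a library's RPKM) were dropped, and symbols on several entries were joined. *TIGAR* was found under its older name and *NKX2-1* under a garbled one.

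The table holds no counts, so the depth is unknown. The spacing of low values gave the relative depth, which differed by 1.04 to 1.23 times within a line, and whole reads for the lowest genes (tolerance 0.06 of a read). Exact 95% intervals of such reads cover counting error only, since PCR copies are not independent molecules.

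Within each line, genes averaging 1 RPKM or more over its 4 libraries were tested on log2(RPKM + 0.5) with limma 3.58.1 (statmod 1.5.0, R 4.3.3, trend and robust estimation), two-sided, with Benjamini-Hochberg adjustment over all tested genes and a threshold of 0.05. A fit over the 16 sensitive libraries had line as a term. Interactions used 8 libraries per pair of lines, and DMSO levels the 10 DMSO libraries. The fits were tested on simulated data. Rescaled values divide each library by its median ratio. Alternatives were pseudocounts of 0.1 and 1, no filter or one at 5 RPKM, quantile normalization, rescaling by the median ratio, limma without trend or robust estimation, 1 fit over 20 libraries, a replicate block, and leaving out each library or line. Leaving out 1 library leaves 1 in its group, so the spread then comes from the other group. Calls gained or lost that way show only how far a result depends on 1 library. A crossed replicate block was chosen after seeing the data.

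The members, lists and tests were chosen with earlier results of these data known. Named genes are the 9 members, *MDM4*, *CDKN1A*, *BAX*, *BBC3*, up to 4 called other targets per line with the largest change, and the 2 genes most correlated with each member over the group means. A further regulator is not reported here, and its values are in no count or figure of the lists. Positions and exon overlaps are from GENCODE (GRCh37), promoters from RefSeq (GRCh38.p14). Tables and figures were made in Python 3.11.15 (pandas 2.3.3, numpy 2.4.6, matplotlib 3.10.9).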

Additional observations from a re-analysis of the deposited data

Results flagged for a closer look

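Responses of 8 of the 9 genes differed between lines in at least 1 test of the difference itself. Listed are differences from RKO and those between sensitive lines whose log2 fold changes had opposite signs. Of single tests over all genes and all pairs, whatever the signs, 19.7% passed, and 46.8% did in ABC-1 minus RKO. The share of all genes with at least 1 such difference was not counted, so 8 of 9 is no result about the members. All values are differences of log2 fold changes with an adjusted p under 0.05 in limma. The response of *AEN* minus that in RKO was -1.30 in ABC-1, -0.23 in OVCAR-4 and, for COLO 320DM, -0.70. That of *MDM2* was -0.24 in OVCAR-4, and of all differences given here only those of *MDM2* (adjusted p = 0.0963) and *AEN* (0.0887) in OVCAR-4 no longer passed in limma after rescaling. For *PLK2* the difference from RKO was -1.38 for ABC-1, -0.78 for OVCAR-4 and -0.93 for COLO 320DM, but *PLK2* had 4 to 9 reads in the RKO libraries and was under the filter there, so it entered through the other line, and for *PLK3* it was -0.58 in ABC-1, where it lay between 0.423 and 1.22 RPKM. *GDF15* differed from RKO by 0.37 in ABC-1 and by 0.48 in OVCAR-4, while UO-31 minus OVCAR-4 was -0.79 and UO-31 minus ABC-1 was -0.69. In COLO 320DM its response was 2.25 higher than in RKO and 2.57 higher than in UO-31. These 2 values are a description, since *GDF15* had 0.252 and 0.163 RPKM with DMSO in COLO 320DM. The value of *GDF15* in UO-31 itself was -0.04 ± 0.12, which did not pass (adjusted p = 0.904). *TP53INP1* differed from RKO by 1.11 for ABC-1 and 0.38 for OVCAR-4, and *BTG2* by 0.50 for ABC-1 and 0.56 for COLO 320DM. *ZMAT3* differed from RKO by -0.56 in ABC-1, and its response was 0.89 higher in COLO 320DM and 0.94 higher in UO-31 than in ABC-1. The response of *BTG2* was 0.66 higher in COLO 320DM than in OVCAR-4, and OVCAR-4 minus ABC-1 was -0.61.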

How the results depend on the processing

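The number of members called moved by more than 1.5 times as follows. In UO-31, with 1 member called, the number was 0 with no filter, 4 with median ratio normalization, 4 with quantile normalization and 2 in 1 fit over 20 libraries, and leaving out 1 library gave 0 to 6 (0 without either DMSO library, 5 without G007-LK replicate 1, 6 without G007-LK replicate 2). In RKO, with 1 called, it was 0 with no filter, 0 without trend or robust estimation, 0 in 1 fit over 20 libraries, and 0 to 1 with 1 library left out (1 only without DMSO replicate 2). In COLO 320DM, with 4 called, it was 2 at a mean of at least 5 RPKM and 1 to 5 with 1 library left out (1 without G007-LK replicate 2). In OVCAR-4, with 7 called, it was 3 in 1 fit over 20 libraries, and over the 4 sensitive lines, also with 4 called, it was 2 at a mean of at least 5. For ABC-1, and for OVCAR-4 with 1 library left out, the number stayed within 1.5 times. Leaving out 1 library also turned the sign of *MDM2* in UO-31 (-0.17 to 0.23) and COLO 320DM (-0.30 to 0.0016), and in UO-31 that of *PLK2* (-0.36 to 0.016), *PLK3* (-0.034 to 0.22) and *GDF15* (-0.0901 to 0.0093). Among values past no threshold, median ratio and quantile normalization gave 0.0057 and 0.077 for *GDF15* in UO-31, 0.081 and 0.084 for *FAS* and 0.0086 and 0.0044 for *ZMAT3* in OVCAR-4, and 0.077 and 0.0503 for *ZMAT3* over the sensitive lines (0.16 without line ABC-1). Median ratio normalization also turned differences of responses, to -0.0087 for *PLK3* in COLO 320DM minus OVCAR-4, -0.12 for *BTG2* and -0.097 for *MDM2* in COLO 320DM minus ABC-1, and 0.056 for *ZMAT3* in OVCAR-4 minus RKO, and a pseudocount of 1 turned those of *FAS*, to 0.0602 in COLO 320DM minus UO-31 and -0.00988 in OVCAR-4 minus ABC-1. Median ratio normalization turned the DMSO levels of OVCAR-4 round, with UO-31 over OVCAR-4 at 0.69 for *AEN*, 0.53 for *MDM2* and 0.22 for *PLK3*, OVCAR-4 over ABC-1 at -0.10 for *AEN*, and OVCAR-4 over RKO at -0.73 for *AEN* and -0.81 for *ZMAT3*, and UO-31 over RKO became -0.032 for *AEN*. The median gene of OVCAR-4 lay 0.74 to 0.98 log2 units above that of the other lines. The cause of the other changes was not tested. Over all genes, calls numbered 2178 as deposited and 4351 rescaled in COLO 320DM, and 1591 and 3564 in UO-31. Such calls were not counted for the other settings.

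The replicate numbers are not stated to pair the libraries. Deviations of same-numbered libraries correlated at -0.25 in COLO 320DM and ABC-1 and between -0.02 and 0.06 in the other lines. With the replicate block 3 members were called in COLO 320DM, 1 in UO-31, 7 in OVCAR-4, 6 in ABC-1, 0 in RKO and 3 over the sensitive lines. The crossed block gave 5 in COLO 320DM and 7 in ABC-1. For values of single members the other settings gave 1015 of 1132 with the same direction and side of the threshold, 39 newly past it, 51 no longer past it and 27 with the sign turned round. Low expression limits *PLK2* in RKO, *TP53INP1* in COLO 320DM and *FAS* in COLO 320DM and ABC-1 to 2 to 29 reads per library.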
